A study of Mus musculus with 6 samples.

Results

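Striatal projection neurons are the principal output cells of the striatum, and 9 genes by which they are commonly recognised were followed here in mouse hippocampus: the receptor genes Drd1, Drd2, Adora2a and Gpr6, the signalling genes Ppp1r1b, Pde10a and Rgs9, and the neuropeptide genes Penk and Tac1. Members were found by symbol among the probe sets (groups of short probes for 1 transcript) that the platform annotation gives to exactly 1 gene, and each gene was read from its brightest probe set by mean. Of the 9 listed genes, 8 had such a probe set, out of 18193 genes so named. No value for Adora2a was analysed here. Of these 8, all except Drd2 lay above the array median on at least 2 of the 6 arrays, which left 7 members among the 11743 genes tested.

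The RNA came from hippocampi of singly housed male DBA/2 mice that drank venlafaxine, a blocker of serotonin and noradrenaline reuptake, in their water for 30 days at 0 (control), 30 (low dose) or 100 (high dose) mg per kg body weight per day. All 3 groups shared strain, sex and housing, and the labels give no age. Material of 10 animals per dose was combined by hemisphere into 1 left and 1 right pool, so each dose has 2 arrays. On the later of 2 hybridization dates only control replicate 2 (left, RNA integrity number 7.9) and high dose replicate 2 (right, 8.2) were run. The first date held control replicate 1 (right, 8.7), low dose replicates 1 (right, 9.1) and 2 (left, 8.9) and high dose replicate 1 (left, 8.5). The labels do not say whether left and right pools came from the same animals, so the p-values rest on differences among pools alone, and these may be technical. With pooled tissue, fewer cells of a type and less RNA per cell cannot be told apart.

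In the striatum, projection neurons fall into a direct pathway class, known for the dopamine D1 receptor and substance P, and an indirect pathway class, known for the dopamine D2 receptor, the adenosine receptor encoded by Adora2a, and enkephalin. The D1 receptor raises cyclic AMP and the D2 receptor lowers it. Protein kinase A (PKA) then phosphorylates DARPP-32, which turns it into an inhibitor of protein phosphatase 1, while phosphodiesterases break cyclic AMP down. None of these genes is limited to the striatum: in the hippocampus D2 receptors are known from hilar mossy cells, and enkephalin from scattered neurons.

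The tissue label was checked first. The 10 dentate granule cell and 7 CA1 genes on the marker lists were all above the filter, as were the 8 of 9 CA3 and CA2 genes with a probe set of their own. Lists of neighbouring tissue passed it as well, with 13 of 13 neocortex, 13 of 13 choroid plexus, 11 of 12 thalamus and 10 of 11 meninges genes that had a probe set, so passing does not separate hippocampus from its neighbours. Markers of cholinergic neurons, found in striatum and septum, were mostly dim. Of 5 with a probe set only Ecel1 passed the filter, while Chat, Slc18a3, Slc5a7 and Lhx8 did not. Drd2, which defines the indirect pathway class, exceeded its array's median only on control replicate 2. The deposited values are log2 expression, with array medians between 7.79 and 7.80 and no 2 arrays identical.

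Among the receptor genes, Drd1 (probe set 1456051_at), which encodes the D1 dopamine receptor, had log2 levels of 9.43 and 9.91 on control replicates 1 and 2, 9.26 and 9.40 on the low dose arrays, and 9.38 and 9.32 on the high dose arrays. Both doses lay below both controls, and the left control pool stood apart above the other 5 arrays. Gpr6 (1440148_at), an orphan receptor that raises cyclic AMP and is known from indirect pathway neurons, had 8.16 and 8.27 in control, 7.81 and 8.15 at the low dose, and 8.01 and 7.56 at the high dose. Its level was near the array median, which it exceeded on 5 of 6 arrays, all except high dose replicate 2. Drd2 (1418950_at) had 7.50 and 7.85 in control, 7.63 and 7.67 at the low dose, and 7.63 and 7.53 at the high dose. Its control arrays thus spanned all of its other values.

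Of the signalling genes, Ppp1r1b (1451331_at), which encodes DARPP-32, had log2 levels of 9.32 and 9.12 in control, 9.23 and 9.44 at the low dose, and 9.08 and 8.74 at the high dose. Pde10a (1439618_at), a phosphodiesterase of cyclic AMP and cyclic GMP, had 11.22 and 11.08 in control, 10.98 and 11.12 at the low dose, and 11.06 and 10.57 at the high dose. Rgs9 (1418691_at), a G protein regulator whose brain form acts behind dopamine receptors in the striatum, had 9.02 and 9.30 in control, 8.93 and 9.21 at the low dose, and 8.95 and 8.85 at the high dose. In all 3 genes both high dose arrays were below both controls, though narrowly. The closest high dose and control arrays differed by -0.01 for Pde10a, -0.04 for Ppp1r1b and -0.07 for Rgs9.

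The peptide genes are Penk (1427038_at), the precursor of the enkephalins, and Tac1 (1416783_at), the precursor of substance P and neurokinin A. Penk had log2 levels of 11.31 and 11.68 in control, 11.32 and 11.49 at the low dose, and 11.34 and 10.87 at the high dose. Its first high dose array lay above its first control array, so these groups overlapped. Tac1 had 10.81 and 11.05 in control, 10.69 and 11.003 at the low dose, and 10.62 and 10.49 at the high dose. Its high dose arrays lay below all others.

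**Figure D1:**
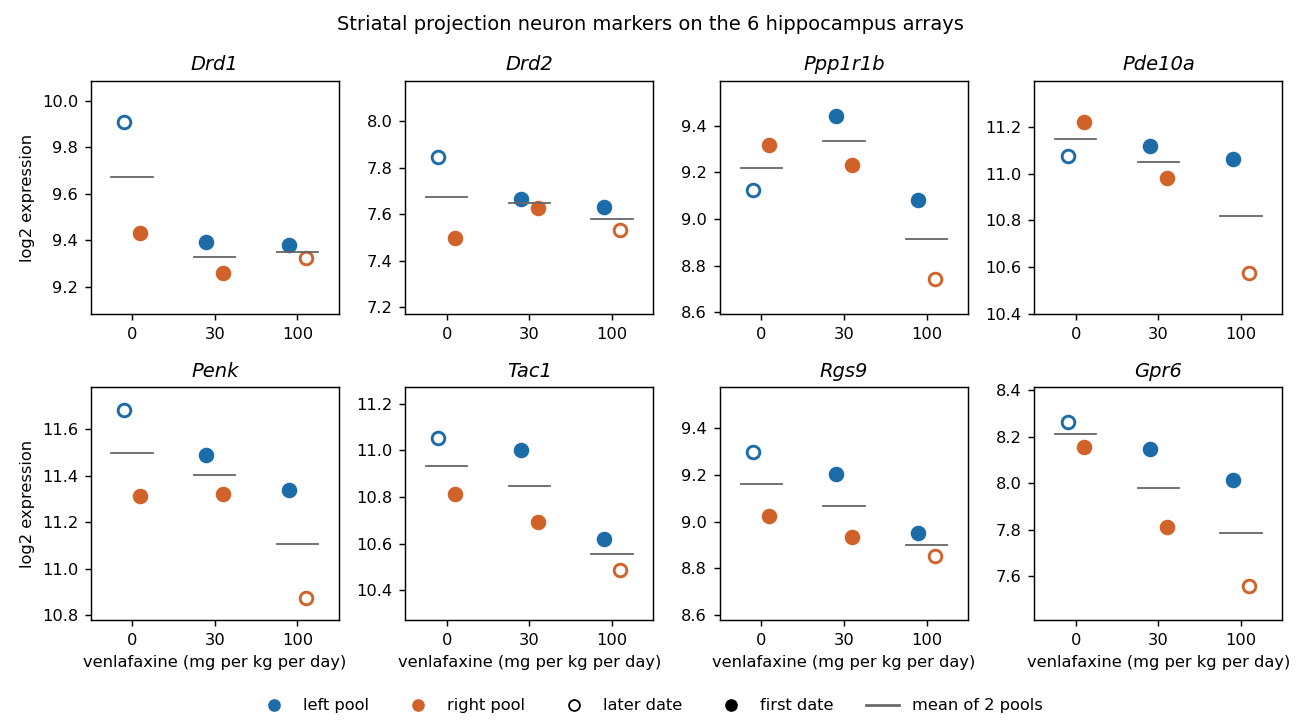
Log2 expression of the 8 genes with a probe set (y axis, each panel spans 1 log2 unit) against venlafaxine dose in mg per kg per day (x axis). Each point is 1 array, blue for left and orange for right pools, open for the later and filled for the first date, and lines are means of 2 pools. The open orange point, high dose replicate 2, is lowest of 6 for Ppp1r1b, Pde10a, Penk, Tac1, Rgs9 and Gpr6.

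The promoter windows of Tac1 and Gpr6 are shown because the members act on or respond to cyclic AMP, and these are the 2 members whose windows held the letters of a cyclic AMP response element (CRE), the binding site of the activity-driven factor CREB, or its inner part. The windows are from RefSeq on GRCm38.p6, span 300 bases around the gene start, and are written 5′ to 3′ on the gene's strand with those letters in capitals. Tac1 lies at chr6:7554811-7555110 on the plus strand and Gpr6 at chr10:41072241-41072540 on the minus strand.
Tac1: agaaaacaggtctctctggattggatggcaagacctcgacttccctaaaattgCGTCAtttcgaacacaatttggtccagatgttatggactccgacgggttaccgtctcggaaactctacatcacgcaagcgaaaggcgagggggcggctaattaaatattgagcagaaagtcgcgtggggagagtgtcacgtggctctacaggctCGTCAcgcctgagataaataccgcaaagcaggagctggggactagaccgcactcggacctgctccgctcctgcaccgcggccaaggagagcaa
Gpr6: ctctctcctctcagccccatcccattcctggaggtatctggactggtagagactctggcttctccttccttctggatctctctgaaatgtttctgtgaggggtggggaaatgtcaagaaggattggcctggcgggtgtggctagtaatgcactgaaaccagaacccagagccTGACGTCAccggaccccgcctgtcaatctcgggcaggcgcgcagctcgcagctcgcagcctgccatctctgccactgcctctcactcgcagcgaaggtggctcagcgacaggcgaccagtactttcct
Both strands were searched. The whole CRE, TGACGTCA, begins 78 bases before the Gpr6 start, and 1.79% of 32851 promoter windows of this length hold it. The shorter TGACG, which also lies inside the whole CRE, is read on the other strand as CGTCA 197 and 43 bases before the Tac1 start, and 20.8% of windows hold it. Drd1, Drd2, Pde10a and Rgs9 also had windows, which makes 8 windows for 6 genes. No window was available for Penk, Ppp1r1b or Adora2a, so these were not searched. None of the 8 held the AP-1 letters TGANTCA (7.81% of all windows) or the EGR letters GCGNGGGCG (5.55%). The GC box GGGCGG, common in promoters, was in 7 of the 8 windows, all except that of Gpr6, and in 35.7% of all windows; in Tac1 it begins 107 bases before the start. A match describes letters and shows no binding.

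The first question was how the members differed between the high dose and no drug. All 7 tested members had lower means at the high dose, and none passed the threshold over all genes (limma, Benjamini-Hochberg adjusted p = 1.00 for each). In this comparison 1 gene of 11743, Egr2, passed (0.00852%), and 64.1% of genes had lower means. The differences ran from -0.42 for Gpr6 to -0.26 for Rgs9 with a median of -0.33, beside a median of -0.03 over all tested genes. Penk averaged 11.11 ± 0.33 at the high dose and 11.5 ± 0.26 in control (SD, n = 2 each), a log2 fold change of -0.39 (SE 0.13), or 1.31-fold lower. Tac1 averaged 10.55 ± 0.096 at the high dose and 10.93 ± 0.17 in control (SD, n = 2 each), a log2 fold change of -0.38 (SE 0.12), or 1.3-fold lower. Gpr6 averaged 7.79 ± 0.32 at the high dose and 8.21 ± 0.078 in control (SD, n = 2 each). Gpr6 ranked 33 and Tac1 34 by p among the 11743 genes. The other values were -0.33 for Pde10a, -0.32 for Drd1 and -0.31 for Ppp1r1b. Each of the 7 had an unadjusted p under 0.05, as did 2.46% of all genes in the lower direction. For 6 of them, all except Penk, both high dose arrays lay below both controls, which held for 18.7% of tested genes. High dose replicate 2 was the lowest of the 6 arrays for 6 of 7, all except Drd1 (22.3% of tested genes), and control replicate 2 the highest for 5 of 7 (6.44%). Drd2, fitted without the filter, had -0.09 (SE 0.11).

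Each difference between high dose and control can also be taken from 1 array against 1 array of the same date or side. On the later date the median over the 7 tested members was -0.57, and on the first date -0.14. Penk differed by -0.81 on the later and 0.023 on the first date, Gpr6 by -0.71 and -0.14, Drd1 by -0.59 and -0.05, and Tac1 by -0.57 and -0.19. Ppp1r1b was the most even, with -0.38 and -0.24. High dose was below control on both dates for 6 of 7 members, as for 34% of tested genes. The pairs of 1 date are of opposite sides: the later date sets a right high dose pool against a left control pool, and the first date a left against a right one. The later pair also has the 2 lowest RNA integrity numbers. Date, side and RNA integrity cannot be told apart within these pairs. Paired by side, which likewise crosses the dates, the 7 members were lower at the high dose on both sides, as were 26.2% of tested genes. Their side medians were -0.35 (left) and -0.44 (right). Pde10a and Ppp1r1b differed mostly on the right (-0.65 and -0.57, against -0.01 and -0.04 on the left), and Drd1 mostly on the left (-0.53, against -0.11 on the right).

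**Figure D2:**
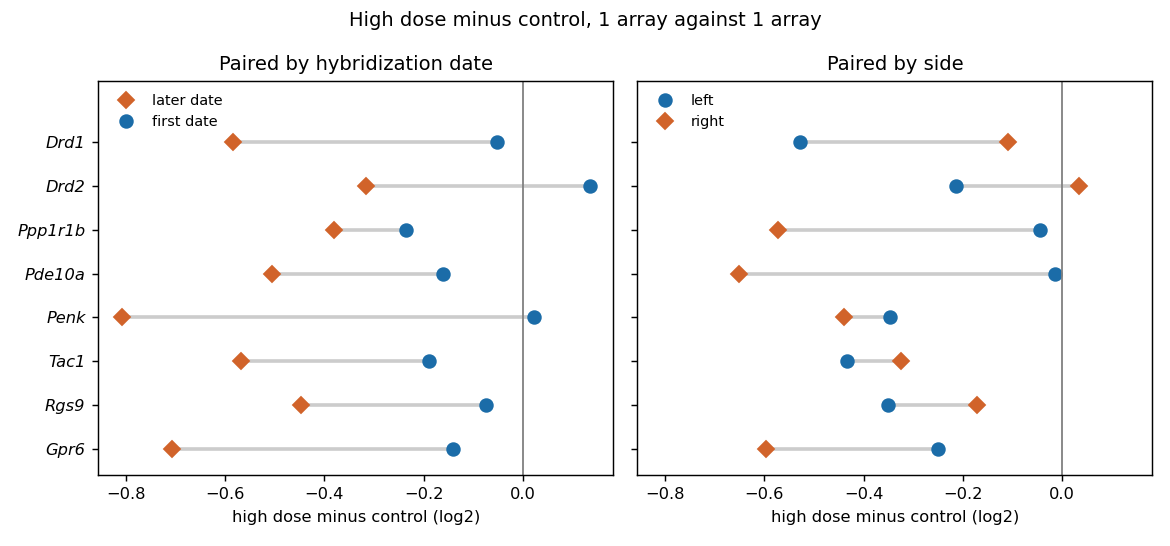
High dose minus control difference in log2 expression (x axis) for each of 8 genes (y axis), each point 1 array minus 1 array, paired by hybridization date in the left panel and by side in the right panel. Every member lies further below 0 on the later date, and Penk (0.023) and Drd2 (0.14) lie above 0 on the first.

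With the hybridization date as a block, which leaves these fold changes as they are, Gpr6 (limma adjusted p = 0.00405), Penk (0.0122) and Tac1 (0.0165) passed among 44 genes, in a fit where 1 common variance served every gene. No member passed with side as a block (limma adjusted p = 1.00 for these 3), with the replicate number as a block (0.11 for Gpr6, 0.211 for Penk, 0.237 for Tac1) or with side and date together (limma adjusted p of 0.101, 0.196 and 0.221 in the same order). Without high dose replicate 2, which leaves 1 high dose array, the members' median was -0.20.

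At the low dose most members differed little from control. None passed (limma), where 5 of 11743 genes did (0.0426%), and 6 of 7 had lower means, where 32.4% of genes did. The median was -0.09, beside 0.04 over all tested genes. Drd1 stood apart with 9.33 ± 0.096 at the low dose and 9.67 ± 0.34 in control (SD, n = 2 each), a log2 fold change of -0.34 (SE 0.12, limma adjusted p = 1.00). It was the 1 member at an unadjusted p under 0.05, as were 1.03% of genes in the lower direction. Gpr6 had -0.23 (SE 0.13). Both low dose arrays lay below both controls for Drd1 and Gpr6, as for 7.78% of tested genes. Penk, Tac1, Rgs9 and Pde10a lay between -0.10 and -0.08, each smaller than its SE, and Ppp1r1b was 0.12 higher. The Drd1 value rests on control replicate 2: without control replicate 2 the difference was -0.11. Without control replicate 1 the difference was -0.58. The control was then the later-date array alone, so dose and date cannot be told apart there. With RNA integrity number as a covariate the sign of the Drd1 difference turned.

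The direct comparison of the doses gave lower means at the high dose for 6 of 7 members, as for 77.2% of genes, and no gene passed (limma; 0% called, 729 genes or 6.21% at an unadjusted p under 0.05). Ppp1r1b had the largest difference, with 8.91 ± 0.24 at the high dose and 9.34 ± 0.15 at the low dose (SD, n = 2 each), a log2 fold change of -0.42 (SE 0.12, limma adjusted p = 0.726). Penk and Tac1 had -0.30 and -0.29. These 3 had an unadjusted p under 0.05, as did 5.96% of genes in the lower direction. For Ppp1r1b and Tac1 both high dose arrays lay below both low dose arrays, as for 37.3% of tested genes. Drd1 had 0.025 with an SE of 0.12. By order of group means, Penk, Tac1, Rgs9, Gpr6 and Pde10a ran from high dose, lowest, over low dose to control, highest, while Ppp1r1b was highest at the low dose; no neighbouring means in these orders differed past the threshold.

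The members were also compared by side. Only the low dose pair sets the sides against each other within 1 date. The left control pool and the right high dose pool were the later-date arrays, so those pairs also differ in date and RNA integrity. Each dose group has 1 left and 1 right pool, and the left pool was higher in all 3 dose groups for Drd1, Penk, Tac1, Rgs9 and Gpr6, that is 5 of 7 tested members, where 3.88% of tested genes showed this and 3.72% the opposite. Drd2, not tested, showed it too. For Penk the left minus right difference was 0.37 in control, 0.17 at the low dose and 0.46 at the high dose, and every left pool lay above every right pool, as in 1.23% of tested genes. For Gpr6 it was 0.11, 0.33 and 0.46 in the same order, and for Tac1 0.24, 0.31 and 0.14. The exceptions were Ppp1r1b and Pde10a, whose control pools ran the other way (-0.19 and -0.15), while their treated pools gave 0.21 and 0.14 at the low dose and 0.34 and 0.49 at the high dose.

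Tested with dose group as a term, no gene differed between sides after adjustment (limma; 0% called, adjusted p = 1.00 for each member), and 40 of 11743 genes (0.341%) had an unadjusted p under 0.05. All 7 members had higher means on the left, as did 45.9% of genes. Of these 40, 5 were members, and all 5 were higher on the left, where 0.128% of genes were. Penk averaged 11.5 ± 0.17 in left pools and 11.17 ± 0.26 in right pools (SD, n = 3 each), a log2 difference of 0.33 (SE 0.11), which ranked 2 by p among 11743 genes. Gpr6 had 0.30 (rank 7). Tac1 had 0.23, Drd1 0.22 and Rgs9 0.22, with ranks of 27, 29 and 37. Pde10a had 0.16 and Ppp1r1b 0.12, neither at an unadjusted p under 0.05. The median over the 7 was 0.22, beside -0.01 over all tested genes. The median stayed between 0.19 and 0.27 when any array was left out, and was 0.25 with the choroid plexus list as a covariate. A common variance served every gene in this fit, and with one that follows expression level 4 of 7 members, all of these except Tac1, had an unadjusted p under 0.05. The count was 1 of 7 with the choroid plexus list as a covariate. The share of all genes was not taken for these alternative fits, so both counts lack a background.

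**Figure D3:**
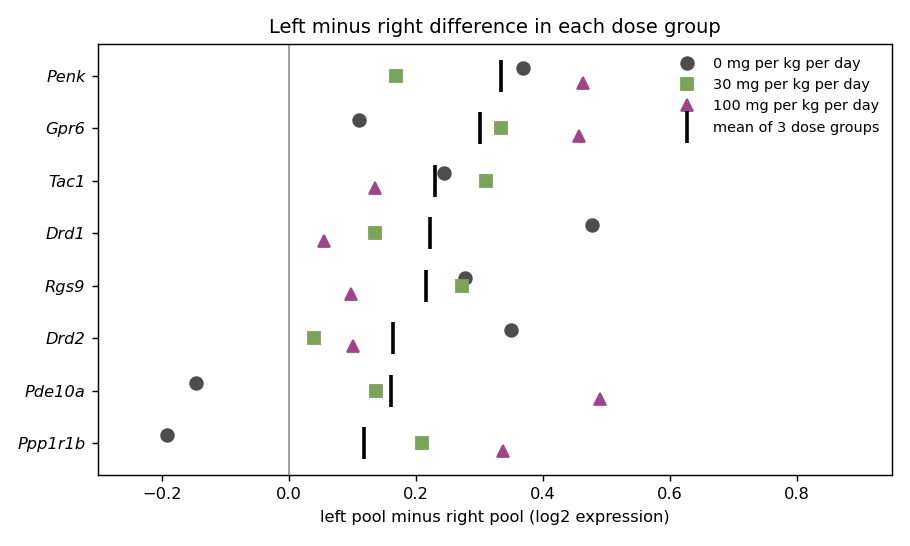
Left pool minus right pool in log2 expression (x axis) for 8 genes (y axis, ordered by their mean), with 1 symbol per dose group and a black bar for the mean of the 3. All points lie above 0 except those of the control group for Pde10a (-0.15) and Ppp1r1b (-0.19). The control and high dose pairs also cross the hybridization dates.

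Between the dates, with dose group as a term, 818 genes passed (6.97%). Among the members Pde10a was the 1 that passed, and it fell by 0.32 on the log2 scale on the later date (SE 0.092, limma adjusted p = 0.0136). Ppp1r1b had -0.26 (limma adjusted p = 0.0554) and Drd1 0.21 (0.161). The other 4 tested members lay between -0.17 and 0.09. The members' median was -0.05, beside -0.06 over all tested genes. This median was -0.34 without either control array and 0.24 without either high dose array. The first value is the later minus first difference within the high dose, which is right minus left, and the second that within control, which is left minus right, so date and side cannot be told apart within a dose group. Ppp1r1b (-0.34 in high dose, -0.19 in control) and Pde10a (-0.49 and -0.15) were lower on the later date in both. The Pde10a call ended with side as a block (limma adjusted p = 0.0888) and with the mean of its probe sets (-0.07).

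Other probe sets gave a check within Drd1, Pde10a, Tac1 and Rgs9, while Penk, Ppp1r1b, Gpr6 and Drd2 had no further probe set. The second Drd1 probe set had -0.26 at the high dose against control and was higher on the left in all 3 dose groups. Of the 4 further Pde10a probe sets, 3 lay above the array median on all arrays and differed by -0.24, -0.23 and -0.12 at the high dose. The first 2 of these were higher on the left in all 3 dose groups, control included (0.026 and 0.12), unlike the main probe set. The remaining probe sets of Pde10a, Tac1 and Rgs9 exceeded the array median on no array, and their high dose differences lay between -0.03 and 0.05.

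A further list held 34 other genes known from striatal projection neurons, chosen by name. Of these, 3 had no probe set named for them alone and 7, including Chrm4, Drd3 and Oprm1, were below the filter. Of the 24 tested, none passed at the high dose against control (limma). Their means were lower in 21 (64.1% of all tested genes), with a median of -0.18. For 13 of 24 both high dose arrays lay below both controls (18.7% of all tested genes). The 4 with the largest moderated statistic were Arpp21 (-0.39, SE 0.13), a phosphoprotein of the cyclic AMP pathway, Foxp2 (-0.30) and Foxp1 (-0.29), forkhead transcription factors, and Arpp19 (-0.32), a phosphatase inhibitor when phosphorylated. Arpp21 had 12.21 and 11.72 at the high dose and 12.33 and 12.38 in control. Adcy5, the main striatal adenylyl cyclase, had -0.25, Gnal, its stimulating G protein subunit, -0.19, and Pdyn, the precursor of dynorphin, -0.06. In left against right, 18 of 24 were higher on the left (45.9% of all tested genes) with a median of 0.06. In all 3 dose groups 6 of 24 were so (3.88% of all tested genes). Scn4b, a sodium channel beta subunit, had the largest difference of these (0.32).

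The genes around DARPP-32, that is PKA and phosphatase subunits, other phosphodiesterases and kinases, moved less. Of 28 listed, 25 were tested and 0 passed at the high dose (limma). Their means were lower in 23 (64.1% of all tested genes), with a median of -0.11, and none had an unadjusted p under 0.05. The largest statistics belonged to the phosphodiesterase gene Pde7b (-0.25, SE 0.12), the PKA catalytic subunit gene Prkacb (-0.20), Creb1 (-0.18) and the phosphatase subunit gene Ppp2r5d (-0.16).

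Markers of other cells and of neighbouring tissue were read beside the members. The 13 tested choroid plexus genes, led by Ttr and Igfbp2, had median centred levels (each gene minus its mean over the 6 arrays) of 0.24 and -0.18 at the high dose on the later and the first date, against -0.32 and -0.0046 in control. The 7 members had -0.41 and -0.07 at the high dose and 0.27 and 0.03 in control in the same order, so between the right high dose and left control pools of the later date the lists differed in opposite directions. Averaged over the 3 dose groups, choroid plexus genes were also lower on the left, in 13 of 13 (6354 of all 11743 tested genes) with a median of -0.17. Of these 13, 5 had an unadjusted p under 0.05 (25 of all 11743 tested genes in the lower direction) and 0 passed (limma). The low dose pair ran the other way, with median centred levels of 0.23 on the left and 0.03 on the right. There the members had 0.15 and -0.08, so both lists were higher on the left. In all 3 dose groups, 0 of the 13 choroid plexus genes were lower on the left. Neocortex genes had lower means at the high dose in 10 of 13, with a median of -0.15, where 64.1% of all tested genes had lower means. With the neocortex list as a covariate the members' median at the high dose was -0.26, with the choroid plexus list -0.24. In these fits 0 and 2 of 7 members had an unadjusted p under 0.05, and the share of all genes was not taken. Activity-induced genes such as Egr1 and Egr3 had lower means in 9 of 9, with a median of -0.50 and nearly the same value on both dates (-0.49 on the later, -0.47 on the first). Paired by side, their medians differed more, with -0.305 on the left and -0.61 on the right. Meningeal genes had higher means in 10 of 10, where 4216 of all 11743 tested genes did. Their median was 0.18, with 0.33 on the later and 0.096 on the first date. Oligodendrocyte genes were lowest on high dose replicate 2 in 8 of 10 (22.3% of all tested genes). The median at the high dose was -0.037 for these, 0.013 for 11 interneuron genes including Gad1 and Cck, 0.0098 for 10 dentate granule genes, 0.034 for 7 CA1 genes, 0.13 for 8 CA3 and CA2 genes (6 of 8 higher), -0.021 for 4 septal genes, -0.073 for 11 thalamic genes, -0.078 for 5 hypothalamic genes and 0.1 for 3 mossy cell genes. The part of these lists in the members' values was otherwise not tested.

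**Figure D4:**
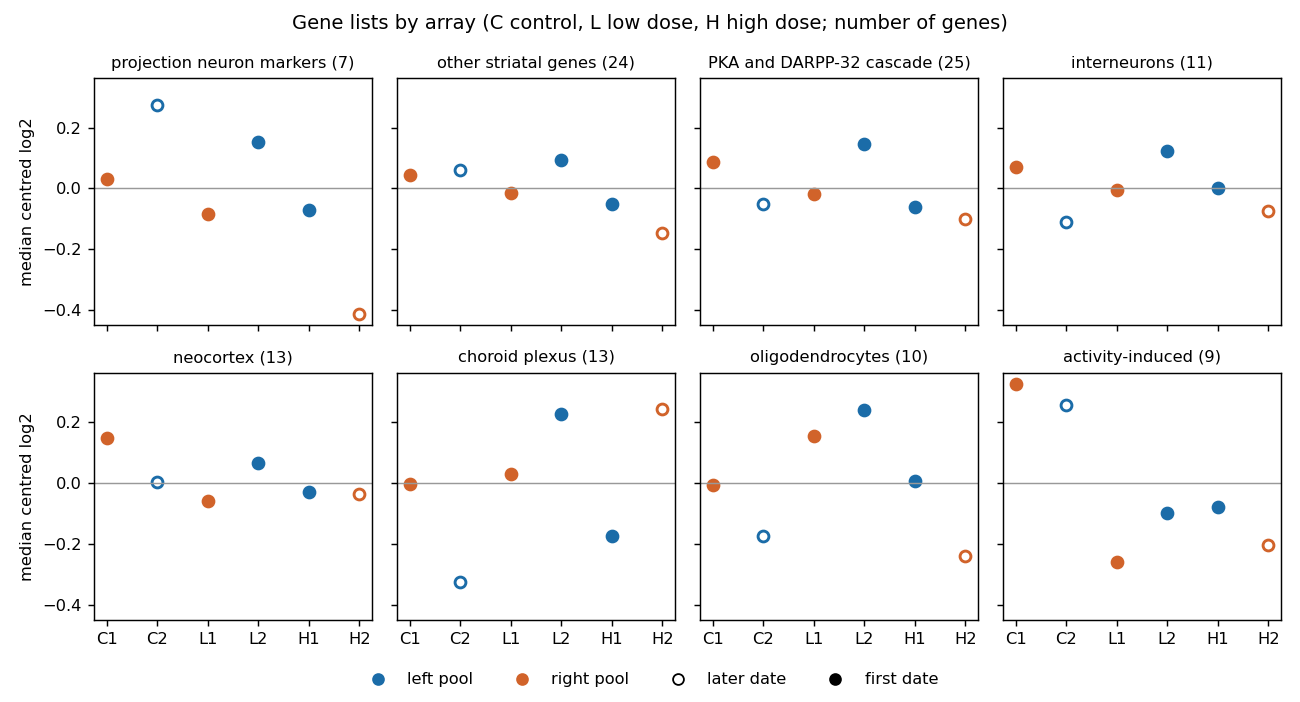
Median centred log2 expression (y axis) of 8 gene lists on each array (x axis, C control, L low dose, H high dose, with the replicate number), with the number of tested genes in each title, blue for left and orange for right pools and open symbols for the later date. From its lowest to its highest array each list spans 0.69 log2 units for the members (H2 to C2), 0.58 for activity-induced, 0.57 for choroid plexus and 0.24 for the other striatal genes, against 0.14 for all tested genes.

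Genes whose profile over the 6 arrays was closest to the members' median profile were Tpbg, Gabrd, Atp2b4, Scn4b, Egr3, Niban3, Rnd3 and Arpp19. Closeness was the root mean square difference of centred log2 values, which ran from 0.10 for Tpbg to 0.12 for Arpp19. Their high dose differences lay between -0.43 (Egr3) and -0.19 (Niban3). This direction follows from the choice of genes, since the members' median profile was itself lower at the high dose. The 6 arrays share dose, side and date structure. Scn4b and Arpp19 were also on the striatal list, and Egr3 was on the activity-induced list.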

How the data were processed

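Affymetrix mouse genome arrays were hybridized with biotin-labelled RNA, 1 pool per array. The authors deposited log2 values for 45101 probe sets, and the submitters' processing notes name RMA and R 3.0.1. Neither RMA settings nor a genome build is stated there; the scale follows from the range of 6.1 to 15.31. After 64 control probe sets, 34945 had 1 symbol, 932 several and 9160 none. For 34741 of those with 1 symbol, the symbol was taken from the RefSeq gene of the same Entrez identifier, whether or not it changed. The highest-mean probe set stood for each of 18193 genes, and 11743 above the array median on at least 2 arrays were tested with limma 3.58.1 (R 4.3.3; lmFit, eBayes, two-sided, Benjamini-Hochberg over all tested genes, threshold 0.05). Fits used all 6 arrays with dose group, without side or date; side and date comparisons had dose group as a term. They were tested on simulated data. A listed p of 1.00 includes adjusted values that round to it. The number of arrays limits precision.

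The members and gene lists were chosen with earlier results of these data known. Named are all members, the 4 genes of the striatal and the DARPP-32 lists with the largest moderated statistic at the high dose, the 8 closest profiles, and up to 2 genes of highest mean per tissue list; other genes of the striatal and tissue lists were named after their values were seen. In control and high dose, replicate 2 is the later-date array, but both low dose arrays share 1 date. Over tested genes the replicate 2 minus replicate 1 differences correlated at 0.54 between high dose and control, 0.077 between low dose and control and 0.13 between high and low dose.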

Additional observations from a re-analysis of the deposited data

Results flagged for a closer look

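The following members had effects of opposite sign in parts of the same contrast, each from 1 array against 1 array, and the differences between the parts were not tested. High dose minus control was -0.81 for Penk on the later and 0.023 on the first date, and for Drd2 -0.32 and 0.14. Drd2 also had -0.21 on the left and 0.0337 on the right. Low dose minus control on the left and on the right was 0.32 and -0.0857 for Ppp1r1b, 0.0432 and -0.24 for Pde10a, -0.19 and 0.0059 for Penk, and -0.18 and 0.13 for Drd2. Left minus right in control, at the low and at the high dose was -0.19, 0.21 and 0.34 for Ppp1r1b and -0.15, 0.14 and 0.49 for Pde10a. The 4 other Pde10a probe sets did not show the reversed sign in control.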

How the results depend on the processing

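Across the alternatives, 115 of 117 member values for left against right kept their direction and their side of the threshold, as did 123 of 138 for high dose against control, 119 of 138 for low dose against control, 121 of 138 for high against low dose and 78 of 117 for the later against the first date. For high dose against control the count of genes passing (1) was 0 without a filter, with averaged probe sets, on centred or quantile-normalized arrays and with the neocortex or choroid plexus list as a covariate, 2 with the stricter filter, 3 with side as a block, 10 with the replicate block and with side and date together (an alternative added after seeing the data), 14 with a trended robust prior and on the first date alone, 39 with RNA integrity number, 44 with the date block, and 0 to 178 when 1 array was left out. Members passing (0) were 3 with date, 3 with RNA integrity number, 1 with the trended prior (Gpr6) and 0 to 4 without 1 array. The members' -0.33 ran from -0.48 without control replicate 1 to -0.20 without high dose replicate 2. Penk was 0.023 on the first date alone.

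For low dose against control the 5 genes became 0 with no filter, probe set means, either normalization or either list covariate, 9 with side and date, 17 with side or the trended prior, 18 on the first date, 20 with RNA integrity number, 21 with date, 32 with the replicate block and 0 to 546 without 1 array, with 0 to 1 member. Signs turned for Drd1 (0.0122 with RNA integrity number), Ppp1r1b (-0.0173 with date, alone or with side, and -0.0784 with RNA integrity number), Pde10a (0.0279 with neocortex, 0.0297 with choroid plexus), Penk (0.0785 with RNA integrity number, 0.15 with choroid plexus, 0.0903 on the first date; -0.28 to 0.0903 without 1 array), Tac1 (0.11 and 0.0374 with RNA integrity number and on the first date; -0.24 to 0.0705) and Rgs9 (0.13 and 0.046 likewise; -0.23 to 0.046).

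For high against low dose the 0 genes became 1 with side and date, 3 with date, 4 with RNA integrity number, 9 on the first date, 11 with side, 25 with the trended prior, 45 with the replicate block (1 member, Ppp1r1b, likewise with the trended prior) and 0 to 152 without 1 array (0 to 2 members). Drd1 was -0.0364 with probe set means, -0.0801 with date (alone or with side), -0.31 with RNA integrity number, -0.011 with choroid plexus and -0.043 to 0.093 without 1 array. Pde10a and Gpr6 were 0.0108 and 0.0365 on the first date and ran from -0.48 to 0.0108 and from -0.42 to 0.0365 without 1 array. For left against right 17 genes passed with RNA integrity number and 0 to 2 without 1 array, none a member, and Pde10a ran from -0.0047 to 0.31.

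For the later against the first date the 818 genes became 22 with RNA integrity number, 33 with the replicate block, 257 with neocortex, 352 with side, 517 with probe set means, 1385 after quantile normalization, 1461 after centring, 2101 with choroid plexus and 154 to 764 without 1 array. The 1 member became 0 with quantile normalization, the replicate block, side, RNA integrity number, neocortex or the trended prior, 2 without a filter, 3 after centring or with choroid plexus, and 1 to 3 without 1 array. The members' -0.05 was -0.26 with the replicate block, -0.53 with RNA integrity number and -0.34 to 0.24 without 1 array. Drd1 was -0.32 with RNA integrity number (-0.0562 to 0.48 without 1 array), Penk 0.0059, 0.0277 and 0.0226 after centring, quantile normalization and with choroid plexus (-0.46 to 0.37), Tac1 -0.26 and -0.47 and Rgs9 -0.18 and -0.40 with the replicate block and RNA integrity number (-0.14 to 0.24 and -0.10 to 0.28), and Gpr6 -0.46 to 0.11. The causes of these changes were not tested. Left against right on first-date arrays could not be fitted, since no degree of freedom remains.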
